A study of Saccharomyces cerevisiae with 12 samples.

Results

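The genes described here encode the enzymes of glycolysis, alcoholic fermentation and the pentose phosphate pathway of budding yeast, Saccharomyces cerevisiae. They were named gene by gene, and a probe set was taken when the platform annotation gave it the symbol of one of the 40 named genes. A named probe set was found for 39 of the 40, out of 5449 genes with a symbol in the table. TDH2, which encodes a glyceraldehyde-3-phosphate dehydrogenase, was not analysed here. Each of the 39 genes had 1 probe set, and all 39 passed the filter on dim probe sets (log2 above 4 on at least 3 of 12 arrays).

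Total RNA was measured on 12 Affymetrix arrays in 4 groups of 3: wild type and gcn5 mutant cells, each without and with Congo Red. Both strains are of the BY4741 background, and the wild type is that strain without the gcn5 mutation. Overnight cultures in rich glucose medium (YPD) were diluted to an A600 of 0.2 and grown for 2 h 30 min before each was divided. One portion then grew on untreated, and the other was given 30 µg/ml of Congo Red and sampled after 3 h, so all 4 groups share strain background, medium and growth time. Congo Red is a dye that binds chitin and disturbs the assembly of the cell wall, and Gcn5 is the histone acetyltransferase of the SAGA coactivator complex. The series' design text calls the arrays 3 biological samples per strain and condition, and the labels say no more of the gcn5 allele than its name.

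Glycolysis splits glucose to pyruvate through a chain of abundant enzymes. Yeast growing on glucose sends most of that pyruvate through pyruvate decarboxylase and alcohol dehydrogenase to ethanol. The pentose phosphate pathway branches off at glucose 6-phosphate and yields NADPH and ribose 5-phosphate. At many steps yeast carries a major isozyme, which does most of the work on glucose, and a minor one, which is often expressed on other carbon sources, in stress or as glucose runs out.

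The deposited values were log2 expression per probe set, and they were compared between groups with limma across 5345 genes. Adjusted p is the Benjamini-Hochberg value over those genes, and a gene passed at an adjusted p under 0.05. Probe sets differ in how brightly they report a transcript, so a higher value of one gene than of another is not read as more transcript. In bulk RNA, fewer cells of a kind and less RNA per cell cannot be told apart. Near-identical copies such as TDH1 and TDH3, or ENO1 and ENO2, may share signal between their probe sets, which was not tested.

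The GCN5 probe set read log2 8.13 to 8.33 on the 6 wild-type arrays and at most 4.08 on the 6 arrays labelled gcn5, as the labels state. Array medians lay between 8.98 and 9.05. The 4 arrays numbered 3 stood apart from the other 8 in markers of mating type a: the mean of 7 such genes, as a deviation from the 12-array mean, was 0.21 and 0.10 on the wild-type arrays numbered 3, against 1.38 to 1.47 on the other 4. In gcn5 it was -1.68 and -1.48 on the arrays numbered 3, against -0.84 to -0.62 on the rest. All 7 of these markers had lower means in gcn5 than in wild type, with a median log2 difference of -1.90 untreated. There 4 of the 7 passed (7 with the array number as a block), beside 263 (414 with the block) of all 5345 genes. Markers of the opposite mating type did not read alike. MF(ALPHA)1 stayed between log2 3.42 and 3.90 on all 12 arrays, MF(ALPHA)2 between 4.65 and 5.81 and STE3 between 4.81 and 5.53. SAG1 ranged from 7.92 to 8.45. AFB1 had means of 8.44 in untreated wild type and 9.86 with Congo Red, and of 5.71 and 5.63 in gcn5. What the mating-type markers' differences between the strains and on the arrays numbered 3 contribute to the results below was not tested.

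Few of the 39 genes changed in any comparison. Congo Red changed 3 of 39 in wild type (7.69%, beside 9.24% of all genes tested): 2 rose (beside 5.33%) and 1 fell (beside 3.91%). In gcn5 it changed 1 of 39 (2.56%, beside 1.16%), which rose (beside 1.09%). These counts ignore that treated and untreated arrays of the same number came from 1 divided culture. With the array number as a block, Congo Red changed 6 of 39 in wild type (15.4%, beside 23.8%) and 1 of 39 in gcn5 (2.56%, beside 3.97%). In the fit without the block, the strains differed in 4 of 39 genes without Congo Red (10.3%, beside 9.82%) and in 4 of 39 with it (10.3%, beside 11%). In both conditions all 4 were lower in gcn5, beside 4.92% and 6.4% of all genes. Counts of 1 to 6 genes are too small to set the pathways apart from other genes by their share. Which enzymes moved is described below by role. The heat map of all 39 genes on all 12 arrays shows pale rows for the abundant enzymes and strong colours for a few minor isozymes and regulatory kinases.

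**Figure D1:**
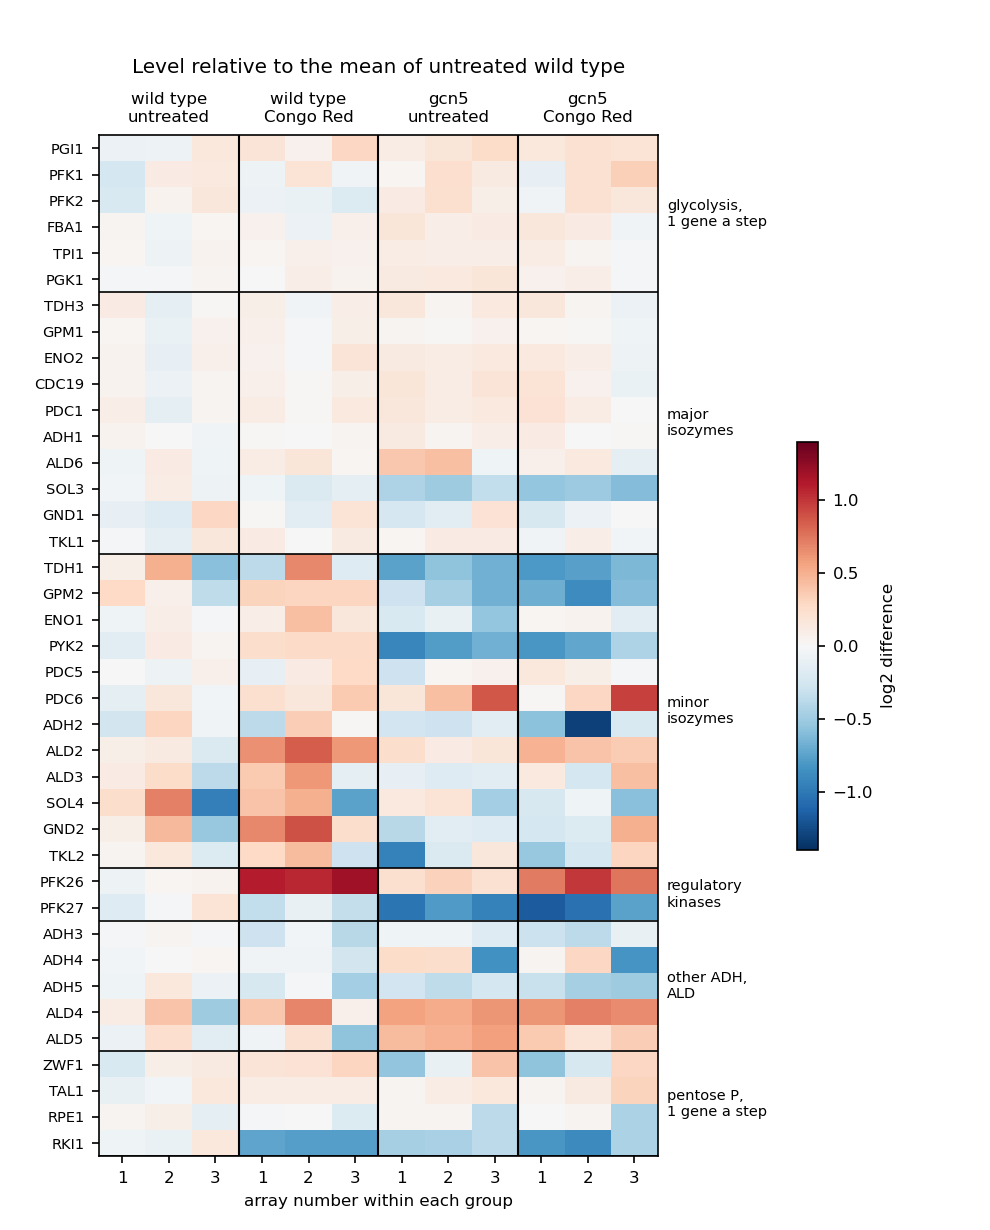
Heat map of 39 genes (rows, grouped by role) on 12 arrays (columns, 3 per group). Colour is the log2 difference from the mean of the 3 untreated wild-type arrays; PFK26 is dark red in wild type with Congo Red, and PFK27, PYK2 and SOL3 are blue on all 6 gcn5 arrays.

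Main trunk of glycolysis and major isozymes. The 6 trunk genes comprise PGI1 (phosphoglucose isomerase), PFK1 and PFK2 (the subunits of phosphofructokinase), FBA1 (aldolase), TPI1 (triosephosphate isomerase) and PGK1 (phosphoglycerate kinase). The 10 major isozymes are TDH3, GPM1 (phosphoglycerate mutase), ENO2 (enolase), CDC19 (pyruvate kinase), PDC1 (pyruvate decarboxylase), ADH1 (alcohol dehydrogenase), ALD6 (aldehyde dehydrogenase), SOL3 (6-phosphogluconolactonase), GND1 (6-phosphogluconate dehydrogenase) and TKL1 (transketolase). With the exception of SOL3, none of these 16 genes passed in any of the 5 comparisons.

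The log2 range over the 12 arrays was 13.76 to 14.02 for FBA1 and 13.56 to 13.74 for TPI1. PGK1 ranged from 13.76 to 13.94, GPM1 from 13.83 to 14.003 and CDC19 from 13.76 to 14.05. These probe sets sat near the top of the scale, and TDH3 held the highest gene value on 12 of 12 arrays. Of the 39 genes, 9 were above log2 13 on every array, as were 77 of all genes. PDC1 ranged from 13.63 to 13.96 and ADH1, which makes ethanol, from 13.67 to 13.84.

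Replicate spread was small for these genes: the median pooled SD within groups was 0.09 for the 6 trunk genes and 0.09 for the 10 major isozymes, against 0.17 for all genes. Low spread went with high signal across the table, where the 111 genes with a mean above log2 13 had a median SD of 0.07. Without SOL3, the fitted log2 changes of the other 15 genes lay between -0.12 and 0.17 for Congo Red in wild type and between -0.22 and 0.01 for Congo Red in gcn5. Between the strains they lay between -0.06 and 0.24 untreated and between -0.12 and 0.23 in Congo Red. Across these 4 comparisons their 95% confidence bounds reached from -0.51 to 0.54, and both of these ends were those of ALD6. Some genes had tighter bounds: for Congo Red in wild type they were -0.11 and 0.21 for PGK1 and for TPI1, against -0.19 and 0.40 for ALD6. Changes within a gene's own bounds were not resolved. Whether probe sets this bright still respond in proportion to RNA was not tested.

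Control of phosphofructokinase. The largest Congo Red response among the 39 genes was that of PFK26. It encodes a 6-phosphofructo-2-kinase, which makes fructose 2,6-bisphosphate, a strong activator of phosphofructokinase. PFK26 read log2 8.91, 9.01 and 9.03 on the untreated wild-type arrays and 10.08, 10.04 and 10.16 with Congo Red. In gcn5 it read 9.20, 9.31 and 9.19 untreated and 9.71, 9.97 and 9.73 with Congo Red. Treated and untreated arrays did not overlap in either strain. The untreated gcn5 arrays all lay above the untreated wild-type arrays, and the treated gcn5 arrays all lay below the treated wild-type arrays.

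PFK26 rose 2.17-fold in wild type, a log2 change of 1.11 ± 0.09 (SE, limma adjusted p = 4.32e-05). In gcn5 it rose 1.49-fold, by 0.57 ± 0.09 (adjusted p = 0.0152). The gcn5 call was lost without any 1 of 4 arrays, with adjusted p of 0.0763, 0.0573 and 0.0517 without untreated gcn5 array 1, 2 or 3 and 0.0575 without treated gcn5 array 2. It was also lost without the 4 arrays numbered 3 (adjusted p = 0.0641) and with only the 6 gcn5 arrays in the fit (0.148). In Congo Red the gcn5 mean was lower by -0.29 ± 0.09, which did not pass (adjusted p = 0.0707) except without treated gcn5 array 2 (0.0302). The difference between the strains' responses was -0.54 ± 0.13 and did not pass (adjusted p = 0.345, and 0.0655 with the array number as a block).

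PFK27 encodes the other 6-phosphofructo-2-kinase, whose transcription is known to be induced by glucose. It read log2 8.31, 8.47 and 8.69 in untreated wild type and 8.15, 8.38 and 8.16 with Congo Red. The gcn5 values were 7.46, 7.69 and 7.54 untreated and 7.33, 7.44 and 7.74 with Congo Red. All 6 gcn5 arrays lay below all 6 wild-type arrays.

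PFK27 was 1.90-fold lower in untreated gcn5, a log2 difference of -0.92 ± 0.13 (limma adjusted p = 0.00225), and 1.65-fold lower in Congo Red, at -0.73 ± 0.13 (adjusted p = 0.00602). The change with Congo Red did not pass in wild type (-0.26 ± 0.13) or in gcn5 (-0.06 ± 0.13). Of the kinase genes, PFK26 passed for Congo Red and PFK27 for strain.

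FBP26 encodes the fructose-2,6-bisphosphatase, which removes the product of both kinases, and is no member of the 39. It read log2 8.28, 8.49 and 8.12 in untreated wild type and 9.75, 9.62 and 9.96 with Congo Red. Its means in gcn5 were 8.61 ± 0.08 untreated and 9.38 ± 0.17 with Congo Red (SD, n = 3 each). FBP26 rose 2.79-fold in wild type (adjusted p = 5.51e-05) and 1.71-fold in gcn5 (adjusted p = 0.0155), so the transcripts for a kinase and for the phosphatase both rose with Congo Red in each strain. The FBP26 call in gcn5 was lost without any 1 of 5 arrays (adjusted p up to 0.0831, without treated array 1).

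**Figure D2:**
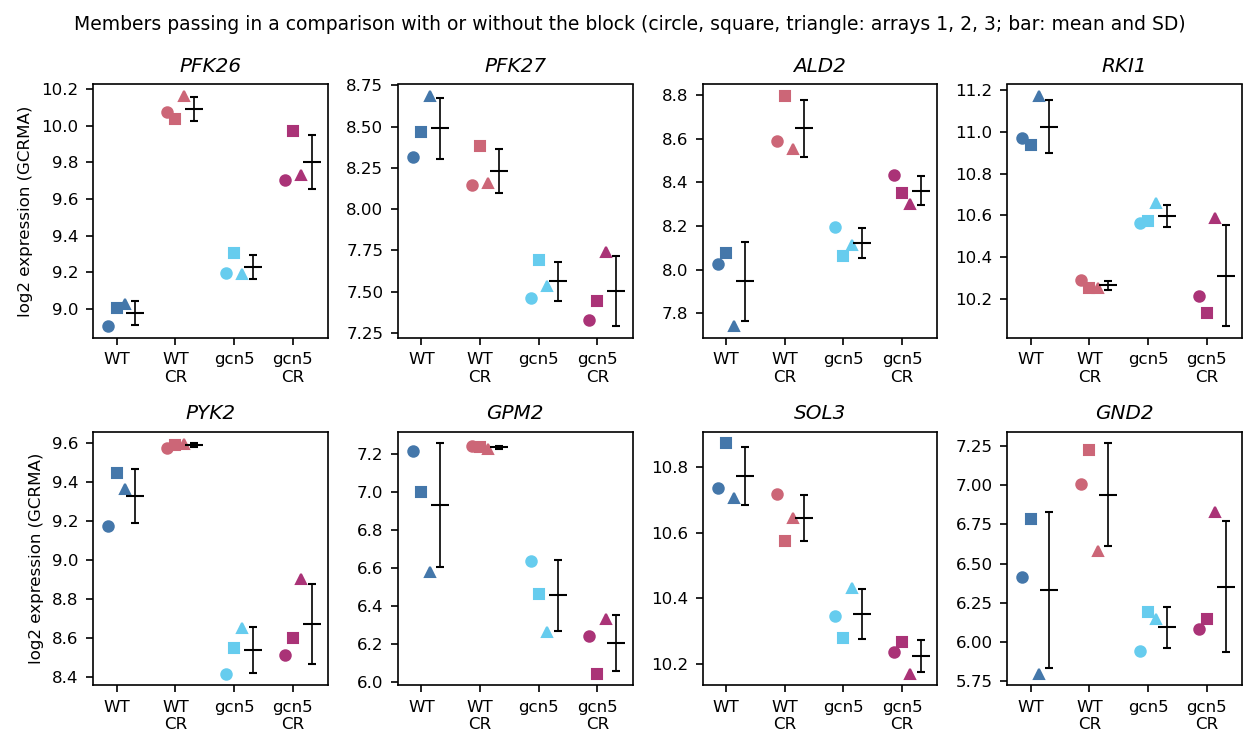
Log2 expression of 8 genes in the 4 groups (WT, wild type; CR, Congo Red); each point is 1 array (circle, square and triangle for arrays 1, 2 and 3) and the bar is the mean and SD of 3 arrays. PFK26 separates by Congo Red in both strains, whereas PFK27, PYK2 and SOL3 separate the 6 gcn5 arrays from the 6 wild-type arrays; each panel has its own vertical scale, which does not start at 0.

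Minor isozymes of lower glycolysis. PYK2 encodes the minor pyruvate kinase, which is repressed by glucose and, unlike the CDC19 enzyme, does not depend on activation by fructose 1,6-bisphosphate. It read log2 9.17, 9.45 and 9.37 in untreated wild type and 9.58, 9.59 and 9.60 with Congo Red. In gcn5 it read 8.42, 8.55 and 8.65 untreated and 8.51, 8.60 and 8.90 with Congo Red. The highest gcn5 array lay below the lowest wild-type array.

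PYK2 was 1.73-fold lower in untreated gcn5 (log2 -0.79 ± 0.12, limma adjusted p = 0.00247) and 1.89-fold lower in Congo Red (-0.92 ± 0.12, adjusted p = 0.000731). Its rise with Congo Red in wild type, 0.26 ± 0.12, passed when the array number was a block (adjusted p = 0.0469) and not otherwise (0.226). CDC19, at the same step, did not pass between the strains.

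GPM2 is a homologue of the phosphoglycerate mutase gene GPM1 and cannot stand in for it during growth on glucose. It read log2 7.21, 7.001 and 6.58 in untreated wild type and 7.24, 7.24 and 7.23 with Congo Red. Values in gcn5 were 6.64, 6.47 and 6.26 untreated and 6.24, 6.05 and 6.33 with Congo Red. The strains overlapped without Congo Red, where wild-type array 3 was low, and separated with it.

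In Congo Red, GPM2 was 2.04-fold lower in gcn5 (-1.03 ± 0.16, adjusted p = 0.00197). Without Congo Red the difference of -0.48 ± 0.16 did not pass (adjusted p = 0.0812). It passed with the array number as a block (0.0301), without untreated wild-type array 3 (0.0183) and without the 4 arrays numbered 3 (0.0285). The test of whether the strain difference depended on Congo Red did not pass (-0.55 ± 0.22, adjusted p = 0.804).

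TDH1 encodes a minor glyceraldehyde-3-phosphate dehydrogenase known to be made as cells enter stationary phase. It read log2 11.33, 11.74 and 10.65 in untreated wild type and 10.88, 11.91 and 11.07 with Congo Red. All 6 gcn5 arrays lay between 10.44 and 10.67. The wild-type arrays spread over more than a log2 unit, and the lower means in gcn5, by -0.66 ± 0.28 untreated and -0.78 ± 0.28 in Congo Red, did not pass (adjusted p = 0.178 and 0.106).

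ENO1 encodes the minor enolase. Its values ranged from log2 12.11 to 13.06, and its means were lower in gcn5 by -0.29 ± 0.13 untreated and by -0.25 ± 0.13 in Congo Red, neither of which passed. In the reference annotation ENO1 lies 2 genes from GCN5, and GND2 and SOL4 each lie 4 genes from it. None of these 3 neighbours passed between the strains in either condition with all 12 arrays. Without the 4 arrays numbered 3, GND2, SOL4 and ALD3 also passed as lower in gcn5 in Congo Red, which made 7 of 39 genes (17.9%, beside 14.9% of all genes).

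Pyruvate decarboxylase and alcohol dehydrogenase. None of these genes passed in any comparison. PDC5, a pyruvate decarboxylase that is raised when PDC1 is lost, lay between log2 8.79 and 9.36. PDC6, a minor form known from sulfur limitation, read 5.34, 5.62 and 5.43 in untreated wild type and 5.63, 5.89 and 6.34 in untreated gcn5. These groups did not overlap, though the difference of 0.49 ± 0.23 did not pass (adjusted p = 0.214).

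ADH2 encodes the glucose-repressed alcohol dehydrogenase that consumes ethanol. It read log2 5.85, 6.56 and 6.23 in wild type with Congo Red and 5.63, 4.90 and 5.99 in gcn5 with Congo Red. The lowest value came from gcn5 array 2, the groups overlapped, and the difference of -0.70 ± 0.26 did not pass (adjusted p = 0.113) except without treated gcn5 array 3 (0.0437). ADH3 (the mitochondrial form) ranged from 11.82 to 12.24 and ADH5 from 8.80 to 9.45. ADH4 fell into separate levels within gcn5: it read 9.82, 9.82 and 8.72 untreated and 9.60, 9.85 and 8.74 with Congo Red, with both arrays numbered 3 low.

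Aldehyde dehydrogenases. ALD2 encodes a cytosolic aldehyde dehydrogenase of the beta-alanine route to pantothenate and is known as a stress-induced gene. It read log2 8.03, 8.07 and 7.74 in untreated wild type and 8.59, 8.80 and 8.55 with Congo Red. In gcn5 it read 8.197, 8.06 and 8.11 untreated and 8.43, 8.35 and 8.30 with Congo Red. Treated arrays lay above untreated ones in both strains, with a wider gap in wild type.

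ALD2 rose 1.63-fold in wild type (log2 0.70 ± 0.11, limma adjusted p = 0.00237). The change in gcn5, 0.24 ± 0.11, did not pass (adjusted p = 0.606), and neither did the difference between the responses (-0.46 ± 0.15, adjusted p = 0.637). ALD3, its near copy in the adjacent locus, ranged from 5.82 to 6.79 and did not pass with all 12 arrays.

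The mitochondrial genes ALD4 and ALD5, which oxidise acetaldehyde to acetate, had higher means in gcn5. ALD4 read 10.23, 10.53 and 9.63 in untreated wild type and 10.69, 10.65 and 10.75 in untreated gcn5, and its difference of 0.57 ± 0.20 did not pass (adjusted p = 0.111) except without untreated wild-type array 2 (0.0495). With Congo Red the wild-type ALD4 values were 10.51, 10.81 and 10.20, each above the untreated value of the same number. That change of 0.38 ± 0.20 passed with the array number as a block (adjusted p = 0.0117, against 0.331 without).

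ALD5 read 10.68, 11.01 and 10.61 in untreated wild type and 11.21, 11.25 and 11.35 in untreated gcn5. These groups did not overlap, and the difference of 0.50 ± 0.17 passed with the block (adjusted p = 0.0452) or without treated wild-type array 3 (0.0311), and not otherwise (0.0992). ALD6, the main cytosolic source of acetate and NADPH, ranged from 12.46 to 13.02 and did not pass.

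Pentose phosphate pathway. The oxidative branch begins with ZWF1, glucose-6-phosphate dehydrogenase. ZWF1 read log2 10.61, 10.90 and 10.95 in untreated wild type, 11.01, 11.03 and 11.12 with Congo Red, 10.27, 10.72 and 11.22 in untreated gcn5 and 10.26, 10.60 and 11.11 in gcn5 with Congo Red. The 3 gcn5 cultures differed from each other by more than the strains did, and ZWF1 did not pass in any comparison.

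SOL3, the major lactonase of the second step, read 10.74, 10.87 and 10.71 in untreated wild type and 10.72, 10.58 and 10.65 with Congo Red. The gcn5 arrays read 10.35, 10.28 and 10.43 untreated and 10.24, 10.27 and 10.17 with Congo Red. All 6 gcn5 arrays lay below all 6 wild-type arrays.

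SOL3 was 1.34-fold lower in gcn5 in both conditions, at log2 -0.42 ± 0.08 untreated (limma adjusted p = 0.0104) and -0.42 ± 0.08 in Congo Red (0.00892). The untreated call was lost without gcn5 array 2 (adjusted p = 0.0511), and the call in Congo Red was lost with only its 6 arrays in the fit (0.0601). SOL4, the minor lactonase, was the most variable of the minor isozymes, with a pooled SD of 0.60 and values from 6.20 to 7.86.

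GND1, the major 6-phosphogluconate dehydrogenase, ranged from 11.86 to 12.39 and did not pass. GND2, the minor form of this NADPH-yielding enzyme, read 6.41, 6.78 and 5.80 in untreated wild type and 7.01, 7.23 and 6.58 with Congo Red. Each treated wild-type array was above the untreated array of the same number, by 0.59, 0.44 and 0.78, although the groups overlapped. The change of 0.60 ± 0.27 passed with the block (adjusted p = 0.0118) and not without it (0.215).

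In the non-oxidative branch, RKI1 encodes ribose-5-phosphate isomerase, which makes the precursor of nucleotides. It read log2 10.97, 10.94 and 11.17 in untreated wild type and 10.29, 10.25 and 10.25 with Congo Red. In gcn5 it read 10.56, 10.57 and 10.66 untreated and 10.21, 10.13 and 10.59 with Congo Red. Untreated wild type stood above the other 3 groups, and the treated groups of the strains overlapped.

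RKI1 fell 1.69-fold with Congo Red in wild type (log2 -0.76 ± 0.12, limma adjusted p = 0.00254). The change in gcn5 did not pass (-0.29 ± 0.12, adjusted p = 0.566), nor did the difference between the responses (0.47 ± 0.17, adjusted p = 0.68). Untreated gcn5 was lower than untreated wild type by -0.43 ± 0.12 (adjusted p = 0.0434). That call was lost in 10 of the 12 fits without 1 array (adjusted p up to 0.124) and was kept with the array number as a block (0.0282).

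RPE1 (ribulose-5-phosphate epimerase) ranged from log2 10.69 to 11.22, TAL1 (transaldolase) from 12.49 to 12.91 and TKL1 (transketolase) from 12.41 to 12.70. TKL2, the minor transketolase, ranged from 5.07 to 6.47. None of these 4 genes passed in any comparison.

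Major against minor isozymes. With Congo Red in wild type, 12 of 12 minor isozymes had a positive fitted change, with a median log2 of 0.24, and 1 of them, ALD2, passed (3 with the array number as a block). Among all genes 2474 of 5345 were positive, with a median of -0.02, and 285 passed as higher (658 with the block). The smallest change was that of ADH2, at 0.00, and the largest was that of ALD2. Of the 10 major isozymes 9 were also positive, with a median of 0.05, and none passed. In gcn5, 7 of 12 minor isozymes were positive, with a median of 0.14 (0.06 without the 4 arrays numbered 3), and none passed.

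Between the strains the minor isozymes lay mostly the other way. Untreated, 10 of 12 had lower means in gcn5, with a median of -0.24, and 1 passed (PYK2; GPM2 also with the block). Of the 10 major isozymes 2 had lower means there, SOL3, which passed, and GND1, and their median was 0.10. In Congo Red 11 of 12 minor isozymes were lower, with a median of -0.32, and 2 passed (PYK2 and GPM2). Of the major isozymes 8 of 10 were lower there, with a median of -0.03, and 1 passed (SOL3); without the 4 arrays numbered 3, 5 of 10 were lower and the median was 0.02. The medians of all genes were 0.02 and -0.00 in these comparisons. Of all 5345 genes, 263 passed as lower untreated (414 with the block) and 342 in Congo Red. The comparisons share arrays: untreated and treated wild type each enter several of them.

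These directions depended in part on scaling and on the arrays numbered 3. With quantile normalization repeated, 11 of 12 minor isozymes were positive in wild type with Congo Red, and without the 4 arrays numbered 3, 9 of 12 were. Without those arrays the minor isozymes' median between the strains in Congo Red was -0.67 rather than -0.32, with 11 of 12 still lower. Small shifts of the major isozymes turned more readily: 10 of 10 were negative with Congo Red in gcn5, but 6 of 10 after repeated quantile normalization or without the arrays numbered 3. After repeated quantile normalization, 5 of 10 were higher in untreated gcn5 rather than 8, with a median of 0.01 rather than 0.10. With Congo Red in wild type 6 of 10 were then positive rather than 9, with a median of 0.02.

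Taken pair by pair, the difference between a minor isozyme and the major one of its step was computed on each array, which gave 12 pairs. These differences are a description with no test, since the pairs were chosen with results known. The median shift of the 12 pairs was 0.17 for Congo Red in wild type and 0.20 in gcn5. Between the strains it was -0.36 untreated and -0.23 in Congo Red. The median over the 12 pairs, taken on each array, had a pooled SD of 0.30 between arrays of a group.

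The pairs did not move alike. The PYK2 to CDC19 difference was lower in gcn5 by -0.94 untreated and by -0.91 in Congo Red, and that of TDH1 to TDH3 by -0.77 in both. The GPM2 to GPM1 difference shifted by -0.51 untreated and by -0.98 in Congo Red. PDC6 to PDC1 moved the other way, by 0.35 and 0.15, and SOL4 to SOL3 by 0.37 and 0.08, the latter with SOL3 itself lower. With Congo Red in wild type the widest shifts were those of ALD2 to ALD6, at 0.60, and GND2 to GND1, at 0.59.

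**Figure D3:**
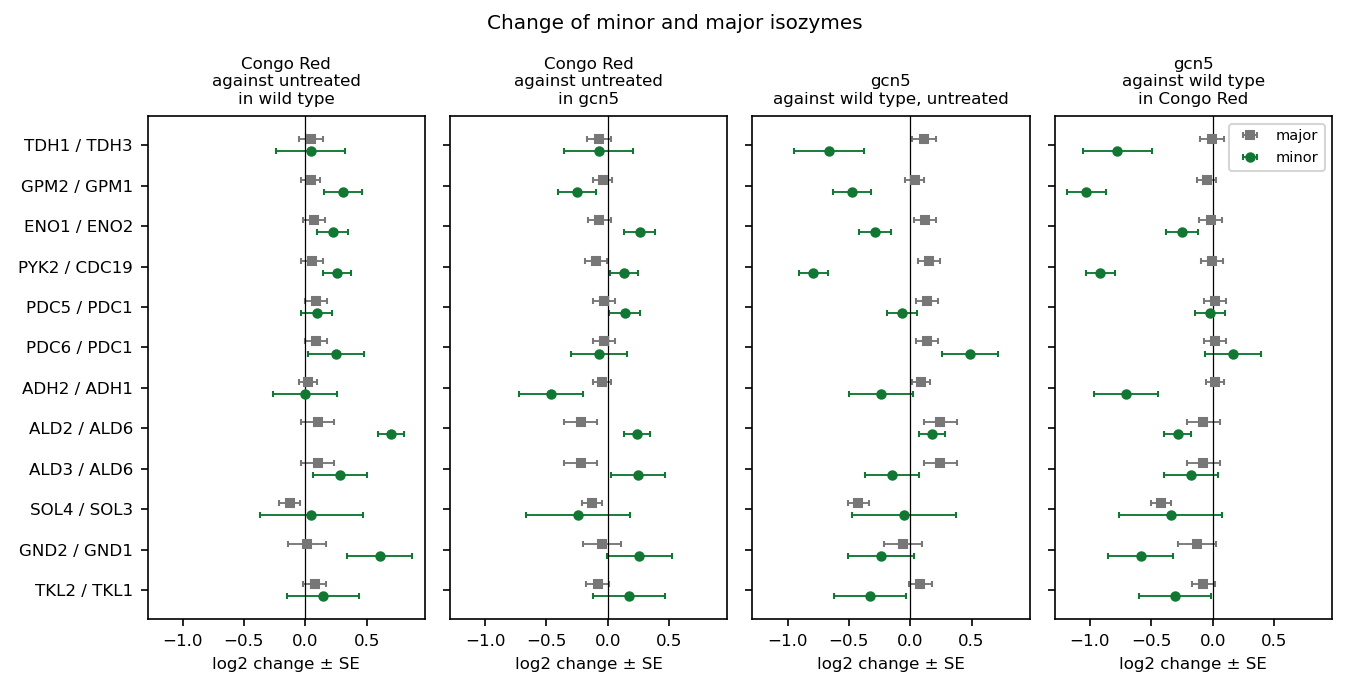
Fitted log2 change (horizontal axis, ± SE, 3 arrays per group) of the minor (green circles) and major (grey squares) isozyme of 12 pairs in 4 comparisons. Major isozymes other than SOL3 stay near 0, while PYK2, GPM2 and TDH1 lie left of 0 in gcn5 against wild type.

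Other gene sets were read beside the minor isozymes. Of 30 environmental stress genes, 26 had a positive change with Congo Red in wild type (median 0.34, or 0.22 without the 4 arrays numbered 3). HSP12, NTH1 and PNC1 passed as higher (3 of 30, beside 5.33% of all genes). With the array number as a block 13 passed as higher and 1 as lower, beside 658 and 614 of all 5345 genes. In gcn5 16 of 30 were positive (median 0.02), or 12 of 30 (median -0.09) without the 4 arrays numbered 3. None passed there in the fit of all arrays without the block. With the block 1 passed as higher and 1 as lower, beside 150 and 62 of all genes. Between the untreated strains 18 of 30 were lower in gcn5 (median -0.04), or 24 of 30 (median -0.14) without the 4 arrays numbered 3. There 2 of the 30 passed as higher and 1 as lower, beside 4.9% and 4.92% of all genes. With the block 2 passed as higher and 2 as lower, beside 467 and 414 of all genes. Between the strains in Congo Red 23 of 30 were lower in gcn5 (median -0.41) and 4 passed as lower, beside 6.4% of all genes. Of these 30 genes, 4 are also among the 39. Of 22 glucose-repressed genes, 17 had higher means in untreated gcn5 (median 0.36). Of these 22, 6 passed as higher and none as lower, beside 4.9% and 4.92% of all genes. With the block 9 passed as higher and 2 as lower, beside 467 and 414 of all 5345 genes. In Congo Red 4 passed as higher and 1 as lower, beside 4.57% and 6.4%; the median was 0.18, or 0.01 without the 4 arrays numbered 3.

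The 12 minor isozymes were also set beside the 26 stress genes outside the 39 on each array. Mean deviations of the minor isozymes were 0.07, 0.28 and -0.23 on the untreated wild-type arrays and 0.24, 0.51 and 0.11 with Congo Red. Those of the stress genes were 0.09, 0.40 and -0.58, and 0.36, 0.62 and -0.00. In both sets array 2 was the highest and array 3 the lowest within each wild-type group. In gcn5 the minor isozymes stood at -0.261, -0.125 and -0.147 untreated and at -0.218, -0.26 and 0.031 with Congo Red. The stress genes stood at -0.069, -0.071 and -0.329, and at -0.227, -0.107 and -0.089. In untreated gcn5 the order was not shared: array 1 was the lowest for the minor isozymes and array 3 for the stress genes. With Congo Red array 3 was the highest in both sets, and the lowest was array 2 for the minor isozymes and array 1 for the stress genes. How far the level of stress genes accounts for the isozyme shifts was not tested.

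**Figure D4:**
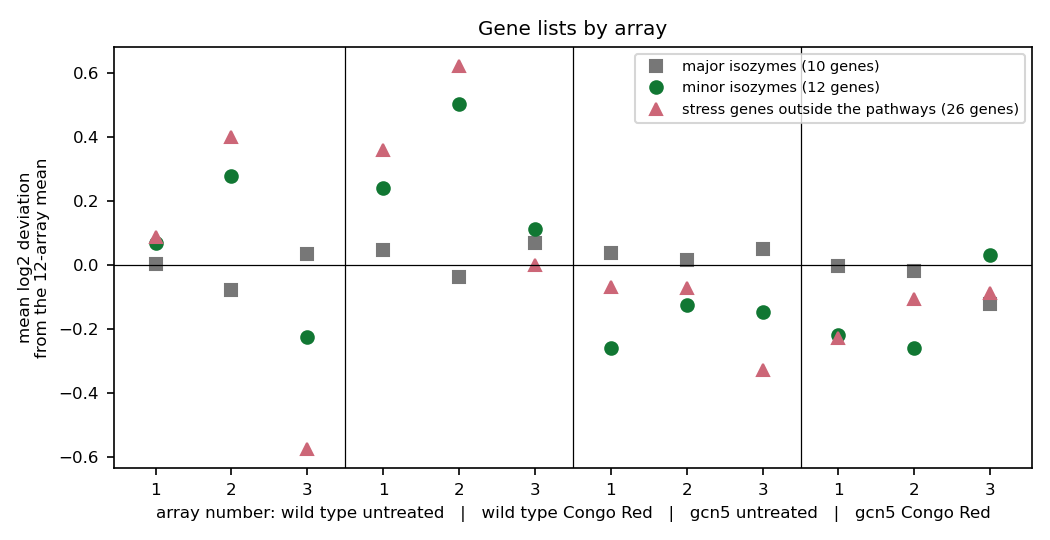
Mean deviation from the 12-array mean (log2, vertical axis) on each array for 10 major isozymes, 12 minor isozymes and 26 stress genes outside the 39. The major isozymes stay between -0.12 and 0.07, while the other sets spread further and are highest on array 2 of wild type with Congo Red.

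Replicate spread and array number. The minor isozymes had a median pooled SD of 0.31, from 0.12 to 0.60, which limits what 3 arrays per group can resolve. Genes with a mean under log2 8 had a median SD of 0.23. Much of the spread was shared by the treated and untreated arrays of the same number. SOL4 was lowest on array 3 in each group, at 6.20 and 6.41 in wild type and 6.68 and 6.57 in gcn5. ALD4 was lowest on array 3 in both wild-type groups, and RPE1 in all 4 groups. ADH4 was low on array 3 in all but untreated wild type. GND1 was highest on array 3 in each group, at 12.39 and 12.28 in wild type and 12.30 and 12.08 in gcn5.

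**Figure D5:**
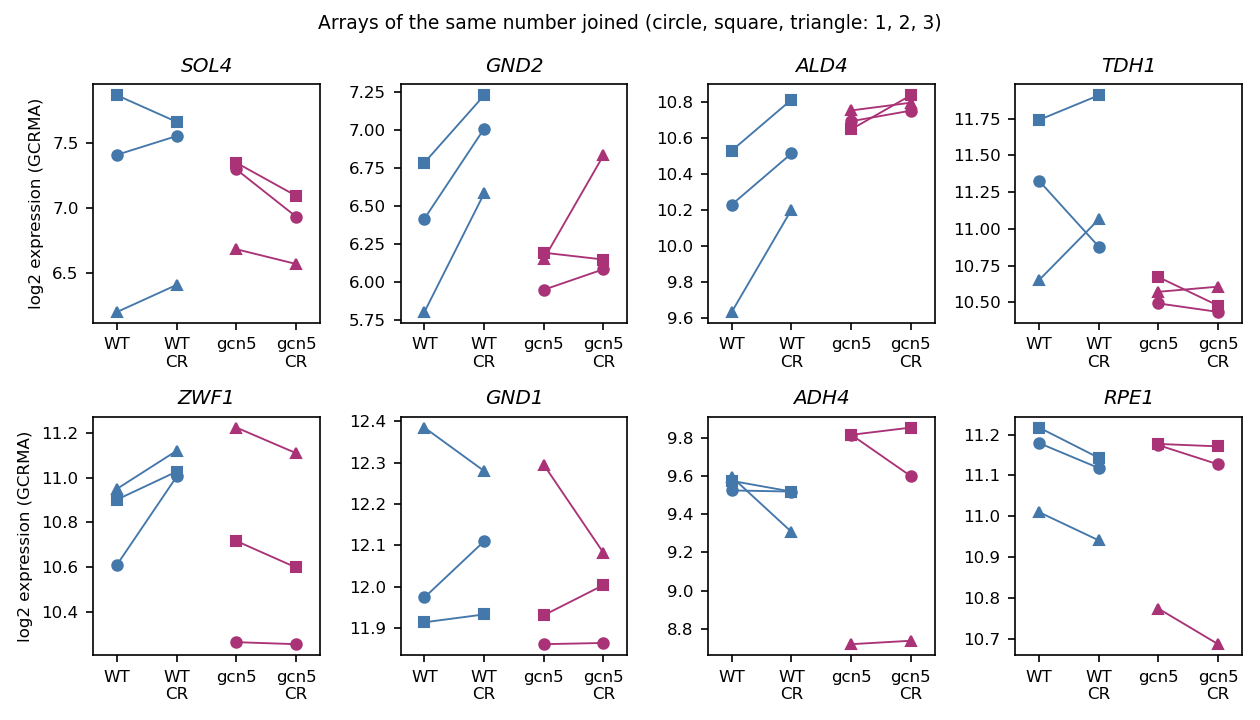
Log2 expression (vertical axis) of 8 genes whose values varied with array number; points are single arrays and lines join the untreated and treated arrays of the same number within a strain (WT, wild type; CR, Congo Red). Array 3 is lowest for SOL4 and RPE1 and highest for GND1 in each group.

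Within a strain, an untreated and a treated array of the same number came from 1 divided culture, so the fit with the number as a block is given. It is also given for the untreated strains, whose same-numbered arrays are different cultures, but not here for the strains in Congo Red. That choice followed the correlations between same-numbered arrays. These were 0.533, 0.389 and 0.443 for the untreated strains and 0.335, -0.084 and 0.114 in Congo Red. The block result for the strains in Congo Red is given at the end, and PFK27 and SOL3 no longer passed in it. For Congo Red in gcn5, PFK26 alone of the 39 passed with the block (beside 3.97% of all genes). For Congo Red in wild type, 6 of 39 genes passed with the block (15.4%, beside 23.8% of all genes): PFK26, ALD2 and RKI1, and also ALD4, GND2 and PYK2. In untreated gcn5 against wild type, 6 of 39 passed with the block (beside 16.5%), with GPM2 lower and ALD5 higher added to PFK27, PYK2, SOL3 and RKI1.

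Groups of 3 arrays did not overlap for 10 of 39 genes with Congo Red in wild type (25.6%, beside 28.6% of all genes) and for 5 of 39 in gcn5 (12.8%, beside 13.9%). Between the strains this held for 17 of 39 untreated (43.6%, beside 32.4%) and for 9 of 39 in Congo Red (23.1%, beside 29%). The 17 include abundant enzymes with small shifts, among them CDC19, ENO2, FBA1, PDC1, PGK1 and TPI1, none of which passed. All 6 gcn5 arrays were separate from all 6 wild-type arrays for 3 of 39 genes (7.69%, beside 10.2%): PFK27, PYK2 and SOL3.

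The response to Congo Red was not shown to differ between the strains for any of the 39 genes. None passed the interaction test in limma (beside 0.0561% of all genes), and none passed with the block (beside 0.561%). Without the block 4 of 39 had an unadjusted p under 0.05 (beside 5.8% of all genes), and with it 8 of 39 (beside 15.9%). PFK26 had the smallest of those without the block, with an unadjusted limma p of 0.00167.

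Neighbouring genes of the pathways. Of 42 further genes of the same pathways, 40 were tested. With Congo Red in wild type 5 rose and 1 fell, beside 5.33% and 3.91% of all genes tested. FBP26 has been described, and RBK1, a ribokinase that feeds ribose into the pathway, rose by 0.81 ± 0.11 (limma adjusted p = 0.000973). RBK1 also rose in gcn5, by 0.73 ± 0.11 (adjusted p = 0.0088), a call lost without untreated array 2 (0.0573) or treated array 1 (0.0530). PRS2, which uses ribose 5-phosphate to make phosphoribosyl pyrophosphate, dropped by 0.52 in wild type (adjusted p = 0.0104). The other 3 that rose were CAT8 and ADR1, activators of genes for non-fermentable carbon sources, and HFD1, a fatty aldehyde dehydrogenase. Their calls were less stable: adjusted p was 0.019, 0.0451 and 0.0232 with all arrays and up to 0.0678, 0.154 and 0.0999 without 1 array. The CAT8 and ADR1 calls were also lost without the 4 arrays numbered 3 (0.0646 and 0.138).

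Between the strains, CAT8 read log2 5.09, 5.23 and 5.24 in untreated wild type and 6.87, 7.18 and 7.07 in untreated gcn5. The groups were well apart, and CAT8 was 3.602-fold higher untreated (adjusted p = 0.000111) and 2.52-fold higher in Congo Red (adjusted p = 0.000548). GLK1, glucokinase, was higher in untreated gcn5 by 0.67 ± 0.16 (adjusted p = 0.0248). GCR1, the main activator of glycolytic genes, was lower there by -0.66 ± 0.19 (adjusted p = 0.0483), and this call was lost in 8 of the 12 fits without 1 array (up to 0.159) and without the 4 arrays numbered 3 (0.204). The GLK1 call was lost in 4 of these fits (up to 0.0871). HXK1, a hexokinase gene, went the other way in untreated gcn5, by -0.94. That difference passed only with the block (limma adjusted p = 0.037) or without the 4 arrays numbered 3 (-1.13, 0.0216). In Congo Red the HXK1 means were log2 11.56 in wild type (SD 0.64) and 10.03 in gcn5 (SD 0.37), a difference that did not pass with all arrays. ERR3, an enolase-related gene, and THI2, an activator of thiamine synthesis genes, were higher in gcn5 in both conditions, and YDR248C, a putative gluconokinase, was lower in both. ERR3 and THI2 each lost the untreated call in 4 of the 12 fits (adjusted p up to 0.0625), THI2 also without the 4 arrays numbered 3 (0.0727), and EMI2, a glucokinase-like gene lower in Congo Red by -0.40 ± 0.12 (adjusted p = 0.0494), lost its call in 10 of them (up to 0.149).

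NQM1, a second transaldolase gene beside TAL1, passed for Congo Red in wild type only with the array number as a block (0.94 ± 0.31 without it, adjusted p = 0.0941; with it, adjusted p = 0.000105). Its treated values exceeded the untreated ones of the same culture by 0.98, 0.95 and 0.87 in wild type. In gcn5 the differences were -0.18, -0.08 and 0.07. There array 3 read log2 8.19 untreated and 8.26 with Congo Red, against 7.09 to 7.27 on arrays 1 and 2. The responses of the strains differed by -0.999, which passed with the block (adjusted p = 0.00922) and not without it (0.842).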

How the data were processed

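Total RNA of 4 groups of 3 yeast cultures was hybridised to 12 Affymetrix arrays. The authors deposited GCRMA output, 1 log2 value for each probe set and array. GCRMA is named by the submitters' processing notes, which state no version. GCRMA models background from probe sequence and normalizes arrays to a common distribution, so shifts shared by all genes are removed. Depth has no meaning for arrays, and their number limits the precision.

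Platform annotation named 5498 of 5716 probe sets with 1 symbol, left 218 unnamed and gave no probe set several symbols; the symbols of 12 were brought up to date. For 47 genes with several probe sets the brightest was kept. Genes above log2 4 on at least 3 arrays (5345 of 5449) were fitted with 4 group means in limma 3.58.1 (R 4.3.3), with 8 residual degrees of freedom, empirical Bayes and Benjamini-Hochberg adjustment over all genes tested at 0.05. The procedure was tested on simulated data.

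The members and lists were chosen with earlier results of these data known. Any member could be named; of other pathway genes, those that passed and step neighbours of members that passed; of the stress list, the 3 with the smallest p.

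Same-numbered arrays deviated together: correlations of deviations from group means were 0.531, 0.745 and 0.67 in wild type and 0.839, 0.573 and 0.795 in gcn5, where per the labels' protocols a culture was divided. They were 0.533, 0.389 and 0.443 between untreated strains, and 0.335, -0.084 and 0.114 between strains in Congo Red, which were not treated as pairs. Alternatives were the replicate block, other scalings and filters, eBayes settings, the compared arrays alone, leaving out each array and, chosen after seeing the data, leaving out the 4 arrays numbered 3.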

Additional observations from a re-analysis of the deposited data

Results flagged for a closer look

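NQM1, the second transaldolase gene, responded to Congo Red differently in the strains by a log2 value of -0.999 in the interaction test with the array number as a block (limma adjusted p = 0.00922). All 3 wild-type cultures were higher with Congo Red, and 1 of 3 gcn5 cultures was. The fit without the block gave adjusted p = 0.842.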

How the results depend on the processing

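For Congo Red in wild type, 3 members passed in every fit without 1 array, and 6 passed with the array number as a block. For Congo Red in gcn5 the count was 1; it was 0 with only the 6 gcn5 arrays, 0 without the 4 arrays numbered 3, and 0 to 1 without 1 array. For the untreated strains it was 4, with 2 to 4 without 1 array (2 without untreated gcn5 array 2) and 6 with the block. For the strains in Congo Red it was 4, with 4 to 5 without 1 array, 2 with the block (GPM2 and PYK2; PFK27 at adjusted p = 0.054 and SOL3 at 0.139 no longer passed) and 7 without the 4 arrays numbered 3 (ALD3, GND2, GPM2, PFK27, PYK2, SOL3 and SOL4), a fit in which 799 of all genes passed against 586 with all arrays. Same-numbered arrays of the strains in Congo Red were not treated as pairs, and the interaction count stayed at 0 of 39 members in all alternatives run, the block included. The median of the 12 isozyme pairs ranged, without 1 array, from 0.03 to 0.31 for Congo Red in wild type, 0.01 to 0.28 in gcn5, -0.50 to -0.22 for untreated strains and -0.41 to -0.13 for strains in Congo Red, where it was -0.62 without the 4 arrays numbered 3. The cause of these shifts was not tested. No fitted change of a gene followed through the alternatives reversed direction. Of 75 list medians under other scalings or without the arrays numbered 3, 3 turned: the trunk with Congo Red in gcn5 from -0.04 to 0.00 (quantile normalization repeated), and, without the arrays numbered 3, the major isozymes between the strains in Congo Red from -0.03 to 0.02 and the stress genes with Congo Red in gcn5 from 0.02 to -0.09. Over all genes the block gave 1272, 212, 881, 252 and 30 passing genes in the 5 comparisons, against 494, 62, 525, 586 and 3 without it. Interaction calls over all genes were 6 with trend and robust eBayes and 13 without the arrays numbered 3. With only the 6 arrays compared, 15 genes passed for Congo Red in gcn5 and 316 for the strains in Congo Red. Without 1 array the counts over all genes ran from 260 to 572, 17 to 59, 265 to 615, 350 to 616 and 3 to 5.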
